A study of Mus musculus with 6 samples.

Results

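The 9 genes described here encode ligands and enzymes by which tumour cells restrain immune cells: Cd274, Pdcd1lg2, Cd276, Pvr, Nectin2, Lgals9, Cd47, Nt5e and Cd80. They were taken as the rows bearing these names among 25526 genes measured by bulk poly(A) RNA-seq in MOC2 cells, which derive from a mouse oral squamous cell carcinoma. Cultures in which CRISPR-Cas9 had disrupted p62, a selective autophagy receptor whose gene is Sqstm1, were compared with parental cultures that kept it, with 3 libraries each. Both groups were kept in DMEM with fetal bovine serum and received no treatment, and whether the knockout cultures are clonal is not stated in the labels. The comparison asks how transcript levels differ between p62 knockout and parental cells, and its p-values cover no variation beyond that between these libraries. Values per library are given in the order of replicates 1 to 3.

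Immune checkpoint ligands act by binding inhibitory receptors on lymphocytes or phagocytes. PD-L1 (Cd274) and PD-L2 (Pdcd1lg2) bind PD-1 on T cells, and CD80, of the same B7 family, binds the activating receptor CD28 and the inhibitory receptor CTLA-4. B7-H3 (Cd276) is a further B7 family protein found on many carcinomas. CD155 (Pvr) and CD112 (Nectin2) bind the inhibitory receptor TIGIT and the activating receptor CD226 on T and NK cells, galectin-9 (Lgals9) is a sugar-binding protein with TIM-3 (Havcr2) among its receptors, and CD47 holds back phagocytosis through SIRP-alpha on macrophages. CD73 (Nt5e) is a surface enzyme that makes adenosine, which dampens T cells, from AMP. Transcription of Cd274 and Lgals9 is known to be induced by interferon.

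Libraries held 32821860 to 41763980 exon reads. Sqstm1 had 117, 589 and 125 CPM (reads scaled to library size with TMM factors) in the 3 knockout libraries, against 1567, 1783 and 2103 CPM in the 3 parental libraries. Knockout replicate 2 stood apart from the other knockout libraries. A chi-square statistic over genes was 317 and 314 per degree of freedom for its pairs with knockout replicates 1 and 3, 7.77 for replicates 1 and 3 with each other, and 40.8 to 98.4 for the parental pairs. Values of the members are therefore also given without it. Sqstm1 had a log2 fold change of -2.71 ± 0.65 (SE; edgeR adjusted p = 0.048), and -3.92 without knockout replicate 2 (adjusted p = 0.000399). The call was lost in 7 of 14 alternatives: with RLE scaling, with the filter at 5 CPM, and without any 1 library other than knockout replicate 2. Of 13 squamous epithelial markers 10 passed the filter on low counts. Krt18 (a keratin) and Cdh1 (E-cadherin) were at 1358 ± 82.5 and 661 ± 52.3 CPM in knockout cells and 1044 ± 84.5 and 694 ± 68.2 CPM in parental cells (SD, n = 3 each), and Krt8, a simple epithelial keratin, was called 2.53-fold higher in knockout cells (edgeR adjusted p = 0.0471). The basal squamous genes Krt5 and Trp63 had 0 to 1 reads and 4 to 9 reads in knockout libraries, against 0 to 1 reads and 1 to 21 reads in parental libraries. Krt14 and Krt17, keratins of the same marker list, were present in every library. They were at 27.5 ± 16.2 and 105 ± 32.8 CPM in knockout cells (SD, n = 3). In parental cells they were at 15.3 ± 1.88 and 78.4 ± 9.06 CPM (SD, n = 3), and neither was called (edgeR adjusted p = 0.267 and 0.274). Of 18 leukocyte markers 14 had at most 3 reads in each library, and 5 of these, Cd3e and Cd8a among them, had 0. The summed level of that list was 18.8 to 26.5 CPM in knockout and 37.8 to 43.6 CPM in parental libraries, mostly Flt3 and Cd68. Cd68, a lysosomal protein of macrophages, fell to 3.48 ± 0.77 CPM in knockout cells, against 19.8 ± 2.08 CPM in parental cells (SD, n = 3 each; edgeR adjusted p = 0.00654). The 9 fibroblast markers summed to 5.29 to 6.59 CPM in knockout and 19.3 to 25.3 CPM in parental libraries. Of these, 2 of 4 tested were called lower, where 5.60% of all genes tested were called lower. The 6 endothelial markers summed to 0.703 to 0.735 CPM in knockout and 0.916 to 1.81 CPM in parental libraries. The part of such transcripts in the results below was not tested. In bulk RNA, fewer cells with a transcript and less of it per cell cannot be told apart.

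The sequences shown are the 250 bases upstream of the start of Lgals9, the member that passed the test, and of Cd274, the other member named above as interferon-induced. They are RefSeq sequences on GRCm38.p6, at chr11:78984925-78985174 on the minus strand and chr19:29367188-29367437 on the plus strand, and are written 5′ to 3′ with matches to the searched motifs in capitals.
Lgals9: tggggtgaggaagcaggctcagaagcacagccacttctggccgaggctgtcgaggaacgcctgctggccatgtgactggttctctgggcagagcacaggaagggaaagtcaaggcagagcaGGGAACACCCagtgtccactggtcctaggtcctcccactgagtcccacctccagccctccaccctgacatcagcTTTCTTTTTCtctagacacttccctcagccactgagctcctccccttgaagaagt
Cd274: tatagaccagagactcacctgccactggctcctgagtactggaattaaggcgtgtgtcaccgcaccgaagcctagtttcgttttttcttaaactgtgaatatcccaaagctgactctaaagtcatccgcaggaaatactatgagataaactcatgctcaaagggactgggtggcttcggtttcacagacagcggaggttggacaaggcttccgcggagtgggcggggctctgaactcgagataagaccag
Motifs were searched on both strands of windows that run from 250 bases before to 50 bases after a gene start. In the Lgals9 window the core bound by interferon regulatory factors, GAAA and GAAA with any 2 bases between them, matched on the reverse strand at -55 (TTTCTTTTTC) and at 15 (TTTCTGTTTC) relative to the first base of the gene. This core was found in 1 of the 8 members with a window and in 3.44% of 32851 windows over all genes. TTC and GAA with any 4 bases between them matched in 1 of the 8 (Pdcd1lg2; 6.95% of all windows), and the NRF2 core TGACNNNGC in 1 (Nectin2; 12.4%). The NF-kB frame, GGG and CC with any 5 bases between them, matched in 6, Lgals9 at -129 among them, but it is loose and matched in 50.8% of all windows. No match of these motifs was found in the windows of Cd274 and Cd47. A match is a description of the sequence and does not show binding.

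**Figure D1:**
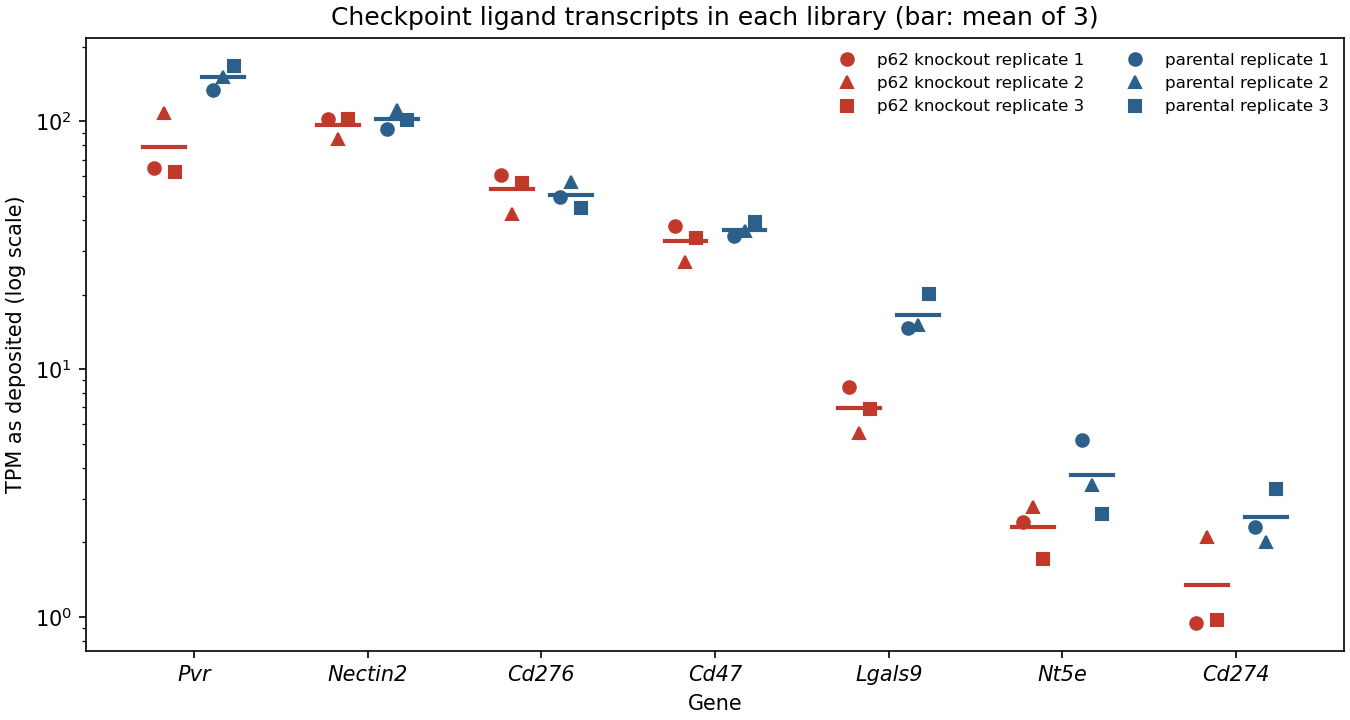
Deposited TPM (log axis) of the 7 members with more than trace reads in each library, knockout left of parental for each gene, with a bar at the mean of 3. Pvr is the highest member in all 3 parental libraries, at 134 to 168 TPM, and Cd274 lies near 1 to 3 TPM.

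The members covered a wide range of levels. In TPM, which scales reads by exon length and library, the order in knockout cells was Nectin2 (96.7 ± 10.4), Pvr (78.7 ± 26.03), Cd276 (53.2 ± 9.53), Cd47 (32.9 ± 5.47), Lgals9 (6.96 ± 1.45), Nt5e (2.30 ± 0.54) and Cd274 (1.34 ± 0.66; SD, n = 3). In parental cells it was Pvr (151 ± 16.9 TPM), Nectin2 (102 ± 8.74), Cd276 (50.4 ± 6.07), Cd47 (36.6 ± 2.46), Lgals9 (16.6 ± 3.02), Nt5e (3.73 ± 1.32) and Cd274 (2.53 ± 0.67; SD, n = 3). The plot of TPM by library shows these levels. Neighbours among these 7 did not overlap between libraries, with the exception of Nt5e and Cd274 in each group and of Nectin2 and Pvr in knockout cells. Cd80 and Pdcd1lg2 ranked below Cd274 and were barely detected. Cd80 had 0, 8 and 1 reads in knockout and 2, 0 and 2 reads in parental replicates 1 to 3, and Pdcd1lg2 a single read in knockout replicate 3 and 0 in the other 5 libraries. A count of 0 allows up to 3 reads, or 0.0718 to 0.0914 CPM before scaling. The filter on low counts removed both genes and kept the other 7 members. In a fit without that filter all 9 were tested and 1, Lgals9, was called. All reads of the members were deposited as unique exon reads, a class that is not stated to settle reads from an overlapping antisense gene.

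Of the 7 members tested, 1 was lower in knockout cells, 0 were higher and 6 did not pass (edgeR, adjusted p below 0.05). Of all genes tested, 9.08% of 12775 were called, 5.60% lower and 3.48% higher. At an unadjusted p below 0.05 there were 2 of the 7, against 32.5% of all genes. The members' median log2 fold change was -0.62, against 0.02 for all genes tested, and 6 of 7 had a negative sign. Groups did not overlap for 2 members, both lower in knockout cells, where 36.3% of all genes did not overlap, 19.0% lower and 17.2% higher. Knockout replicates 1 and 3 lay below every parental library for 4 members (Lgals9, Pvr, Cd274 and Nt5e) and for 34.4% of all genes, and replicate 2 did not for 2 of these (Cd274 and Nt5e), a pattern held by 15.4% of all genes. Without knockout replicate 2, 3 members were lower and 0 higher, when 46.2% of 12942 genes were called and 23.2% were lower. Without parental replicate 2 edgeR called 0 genes of the whole table, with 2494 at an unadjusted p below 0.05, so every call below was lost in that fit.

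Lgals9 (ENSMUSG00000001123), encoding galectin-9, was the member called lower. It had 5.47, 3.75 and 4.69 CPM in the 3 knockout libraries, against 9.17, 9.25 and 13.5 CPM in the 3 parental libraries. All 3 knockout libraries lay below all 3 parental libraries, and knockout replicate 2, which kept the most Sqstm1, was the lowest. The log2 fold change was -1.20 ± 0.25 (SE), or 2.29-fold lower, with a 95% interval of -1.78 to -0.61 (edgeR adjusted p = 0.0356). The value rested on 153 to 441 reads per library. It was -1.08 without knockout replicate 2 (adjusted p = 0.0125), while the adjusted p rose to 0.0635, 0.151 and 0.101 without parental replicates 1, 2 and 3 and to 0.12 and 0.145 without knockout replicates 1 and 3, at log2 fold changes of -1.32 to -0.98. With all 6 libraries DESeq2 and limma-voom also called it (adjusted p = 0.000284 and 0.0387), where they called 11.0% and 5.45% of genes lower.

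Pvr (ENSMUSG00000040511), encoding CD155, also lay lower in every knockout library but did not pass. It had 76.0, 133 and 76.2 CPM in the 3 knockout libraries, against 151, 167 and 203 CPM in the 3 parental libraries. Knockout replicates 1 and 3 were at 43.8% and 43.9% of the parental mean and knockout replicate 2 at 76.4%, close under the lowest parental library. The log2 fold change was -0.87 ± 0.25 (SE; 95% interval -1.46 to -0.28), with an edgeR adjusted p of 0.0697. It became -1.21 (adjusted p = 0.00196) without knockout replicate 2, and DESeq2 gave an adjusted p of 0.0179 with all 6 libraries. The span of an antisense gene overlaps that of Pvr, as for Cd274 and Nectin2. Whether the counts keep the reads of such pairs apart is not known, since the strand setting of the counting is not named.

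Nectin2 (ENSMUSG00000062300), encoding CD112, which also binds TIGIT, did not differ beyond the spread between libraries. It had 142, 123 and 149 CPM in the 3 knockout libraries, against 125, 146 and 145 CPM in the 3 parental libraries. The groups overlapped, with knockout replicate 1 inside the parental range, replicate 2 below it and replicate 3 above it. The log2 fold change was -0.004 ± 0.130 (SE), and its 95% interval of -0.31 to 0.30 corresponds to 0.806-fold to 1.23-fold (edgeR adjusted p = 0.985). It was 0.06 without knockout replicate 2 (adjusted p = 0.675). The ratio of Pvr to Nectin2 within a library, which does not depend on scaling, was 0.633, 1.28 and 0.607 in the 3 knockout libraries by TPM, against 1.435, 1.36 and 1.665 in the 3 parental libraries. Pvr exceeded Nectin2 in all parental libraries and in knockout replicate 2, and was the lesser of the pair in knockout replicates 1 and 3. The groups did not overlap, and the difference in the mean log2 ratio was -0.91 (exact permutation test, two-sided, p = 0.1, the smallest that 3 against 3 libraries allow).

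**Figure D2:**
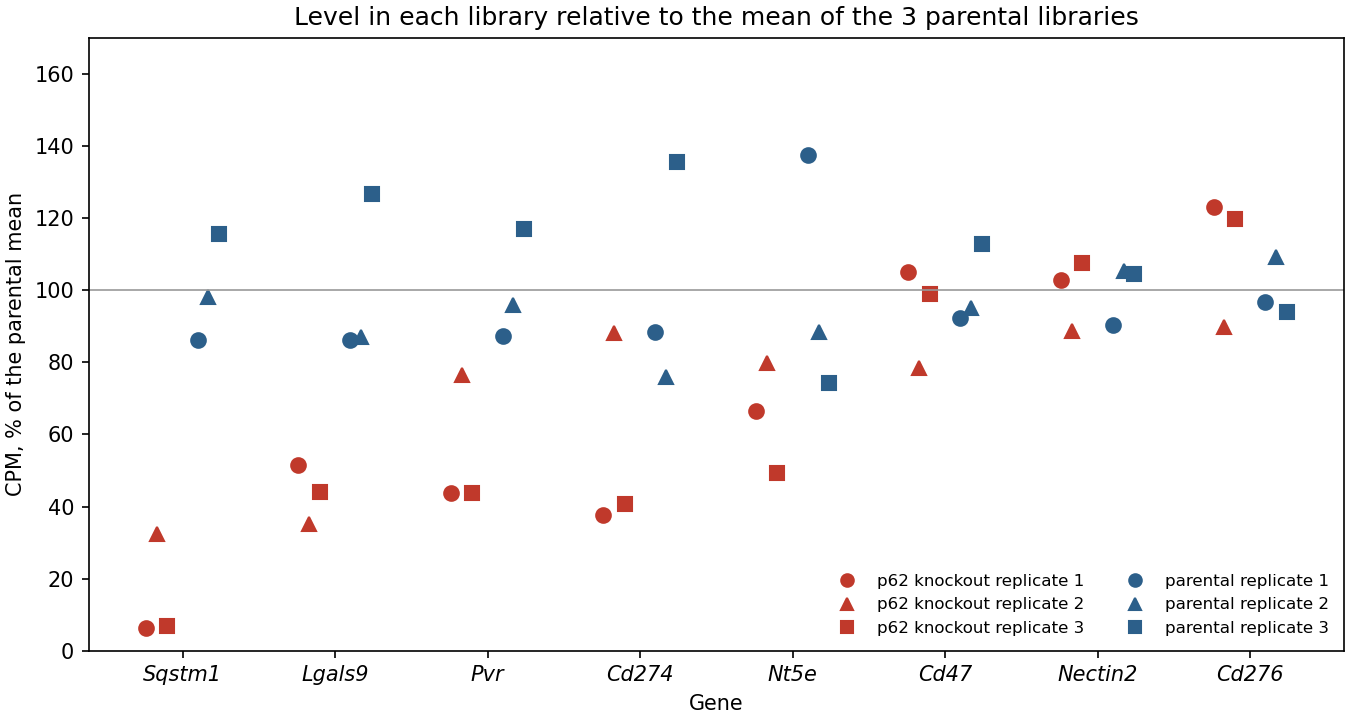
CPM in each library as a percentage of the mean of the 3 parental libraries, for Sqstm1 and the 7 members tested, knockout left of parental. Lgals9 sits at 35.3% to 51.5% in all 3 knockout libraries, while for Pvr and Cd274 knockout replicate 2 (triangles) sits at 76.4% and 88.1%.

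Cd274 (ENSMUSG00000016496), encoding PD-L1, followed the same division of the knockout libraries as Pvr. It had 1.37, 3.21 and 1.48 CPM in the 3 knockout libraries, against 3.22, 2.77 and 4.94 CPM in the 3 parental libraries. Knockout replicates 1 and 3 lay below all parental libraries, at 37.7% and 40.7% of the parental mean, and replicate 2 within the parental range at 88.1%. With all 6 libraries the log2 fold change was -0.84 ± 0.41 (SE; 95% interval -1.82 to 0.13; edgeR adjusted p = 0.203). Without knockout replicate 2 it was -1.36 ± 0.33, or 2.57-fold lower (adjusted p = 0.0167). Counts were low, at 45 to 162 reads per library.

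Nt5e (ENSMUSG00000032420), encoding CD73, had 3.88, 4.66 and 2.88 CPM in the 3 knockout libraries, against 8.03, 5.16 and 4.33 CPM in the 3 parental libraries. Knockout replicate 2 lay above the lowest parental library, and the other knockout libraries below all parental ones. The log2 fold change was -0.62 ± 0.31 (SE; 95% interval -1.35 to 0.12; edgeR adjusted p = 0.211), and -0.80 without knockout replicate 2 (adjusted p = 0.0761).

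Cd276 (ENSMUSG00000035914), encoding B7-H3, and Cd47 (ENSMUSG00000055447) overlapped between groups. Cd276 had 89.2, 65.3 and 87.0 CPM in the 3 knockout libraries, against 70.3, 79.3 and 68.2 CPM in the 3 parental libraries. Its knockout libraries straddled the parental range, with replicates 1 and 3 above it and replicate 2 below it. The log2 fold change was 0.15 ± 0.16 (SE; 95% interval -0.23 to 0.52; edgeR adjusted p = 0.542), and 0.27 without knockout replicate 2 (adjusted p = 0.0747). Cd47 had 94.6, 70.6 and 89.1 CPM in the 3 knockout libraries, against 83.1, 85.7 and 102 CPM in the 3 parental libraries. Again replicate 2 was the lowest library, and the other knockout libraries were inside the parental range. The log2 fold change was -0.09 ± 0.16 (SE; 95% interval -0.46 to 0.28; edgeR adjusted p = 0.72), and 0.01 without knockout replicate 2 (adjusted p = 0.946). For Cd276, Nectin2 and Cd47 the intervals hold no change of 1.5-fold or more in either direction with all 6 libraries, a size chosen after the values were seen.

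**Figure D3:**
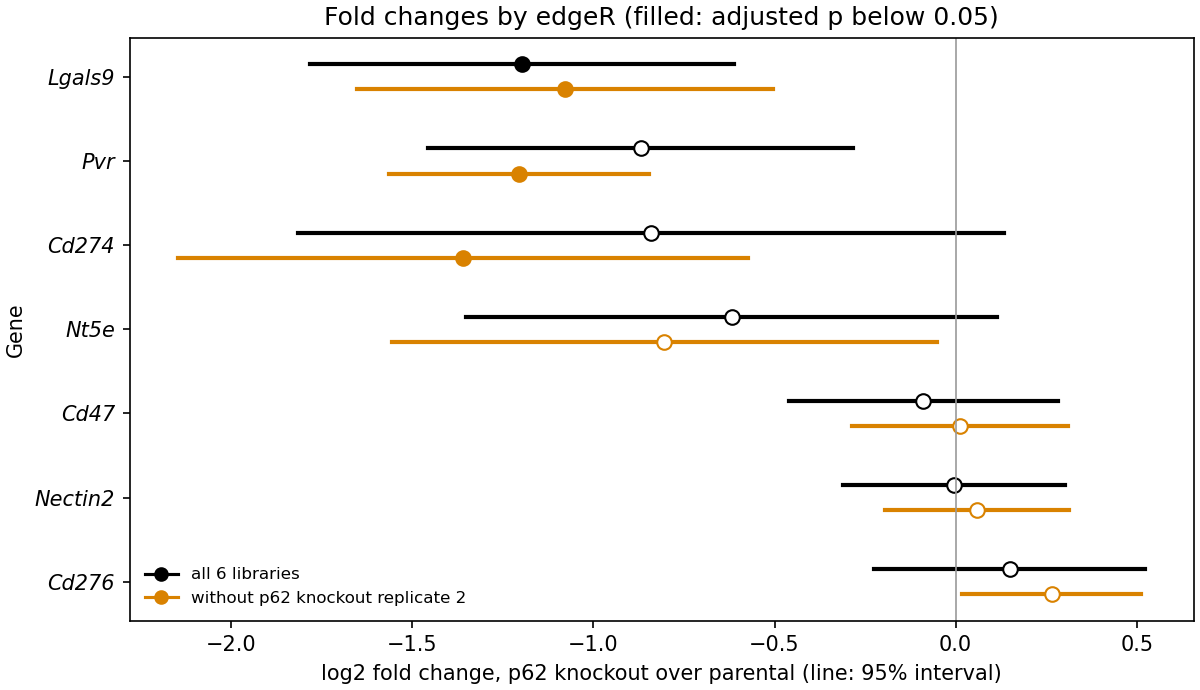
Log2 fold change of each member tested, p62 knockout over parental, with its 95% interval, from all 6 libraries (black) and without knockout replicate 2 (orange); filled points have an adjusted p below 0.05. Lgals9 is filled in both fits, Pvr and Cd274 only without knockout replicate 2, and Cd47, Nectin2 and Cd276 lie near 0.

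The summed level of the 9 members was 278, 273 and 265 TPM in the 3 knockout libraries, against 334, 375 and 379 TPM in the 3 parental libraries. Without Pvr the sums were 213, 165 and 203 TPM in knockout libraries, against 199.7, 225 and 211 TPM in parental libraries, and overlapped. Pvr made up 23.4%, 39.8% and 23.5% of the knockout sums and 40.2%, 40.1% and 44.3% of the parental sums.

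The genes with the most similar profiles over the 6 libraries were found by the root-mean-square difference of centred log2 CPM among 10096 genes averaging 5 CPM or more. Lgals9 was closest to Chst11, a chondroitin sulfotransferase, Stom, which encodes the membrane protein stomatin, and Megf9 (0.137 to 0.144). Pvr was closest to C9orf72, whose product takes part in autophagy and endosomal traffic, at 0.0214, then to Fbxl12, an F-box protein of a ubiquitin ligase, and the adaptor gene Gab2. Cd274 was closest to Zfp369, Epha2, an ephrin receptor kinase, and the antiproliferative gene Btg1 (0.155 to 0.159), and among the members to Pvr (0.196, against 0.556 for Lgals9). Nt5e was closest to Hemk1, Zfp839 and Coq10a (0.103 to 0.130). The 3 members with fold changes near 0 varied little, so by this measure their closest genes had to vary little too. These were Hdac6, Inpp5a and Cand1 for Nectin2, Tpcn1, Rab25 and Tor4a for Cd276, and Necap1, Pdp2 and Stradb for Cd47, all within 0.0503. Distances were not scaled to the spread of a profile. Its SD was 0.121 to 0.190 for these 3 members and 0.698 for Lgals9, so smaller distances do not mean closer matches between members.

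Receptors for these ligands were looked up in the same libraries, and the pair named here was singled out after the values were seen. Tigit, the receptor of CD155 and CD112, had 57.7, 40.3 and 55.9 CPM in the 3 knockout libraries, against 61.3, 42.8 and 30.0 CPM in the 3 parental libraries. Havcr2 (TIM-3) had 14.0, 18.3 and 12.7 CPM in the knockout libraries and 13.8, 13.1 and 15.5 CPM in the parental libraries. Both receptor transcripts were present in every library of this carcinoma line, and neither differed between groups beyond the spread (log2 fold change 0.20, edgeR adjusted p = 0.645 for Tigit, and 0.09, adjusted p = 0.773 for Havcr2). The T cell genes Cd3e, Cd8a, Pdcd1 and Cd226 had 0 reads in all 6 libraries, and Ptprc (CD45) had 3 to 8 reads in knockout and 0 to 2 reads in parental libraries. Other leukocyte markers were present: Flt3 averaged 15.1 ± 5.14 CPM in knockout cells and 18.0 ± 4.39 CPM in parental cells, and Csf1r averaged 2.66 ± 1.46 CPM in knockout cells and 1.91 ± 0.56 CPM in parental cells (SD, n = 3 each). Of 4 receptor genes tested 1 was lower and 0 higher, where 9.08% of all genes were called. The lower gene, Rgmb, a PD-L2 binding protein, fell to 26.3 CPM in knockout cells, against 45.1 CPM in parental cells (edgeR adjusted p = 0.0323).

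**Figure D4:**
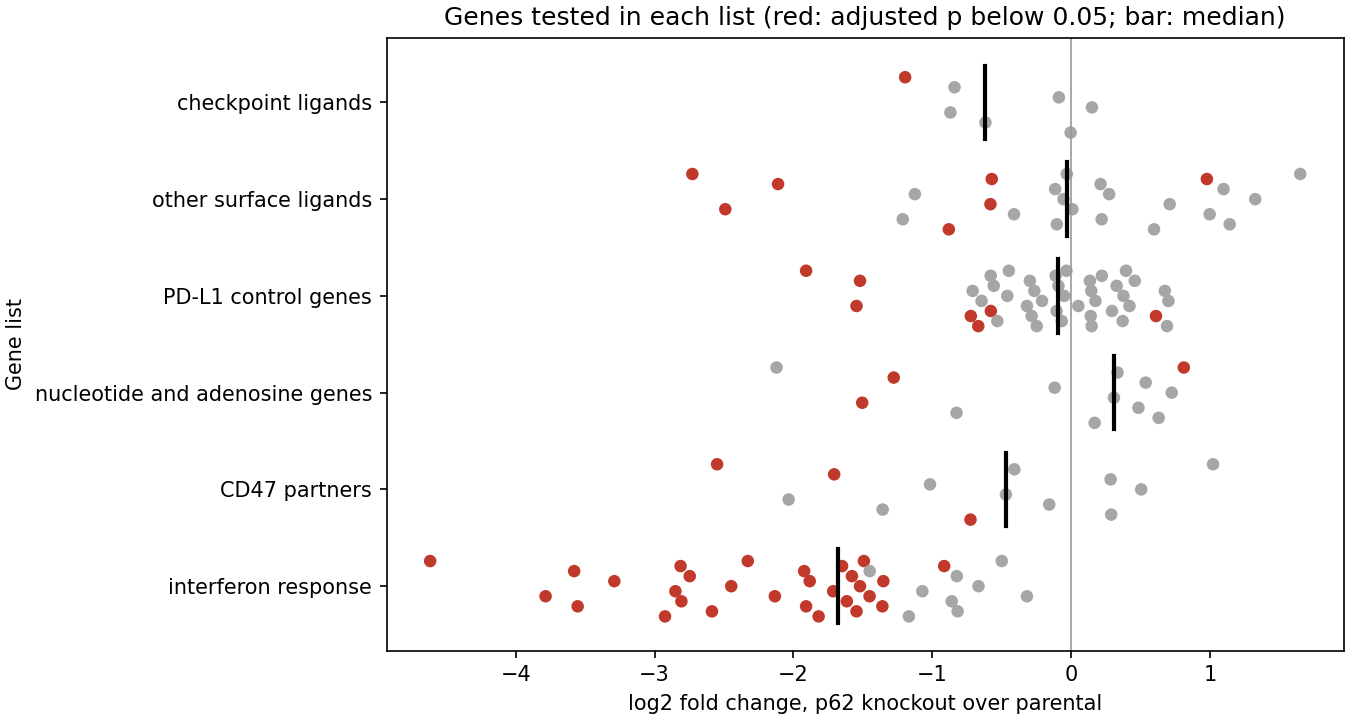
Log2 fold change, p62 knockout over parental, of every tested gene of the checkpoint ligands and of 5 related lists; red points have an adjusted p below 0.05 and bars mark medians. The checkpoint ligands have a median of -0.62, the list labelled other surface ligands -0.03 and the interferon response genes -1.68. The lists labelled other surface ligands and CD47 partners also hold genes of other kinds.

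A list of other ligands and surface proteins met by lymphocytes or myeloid cells also held galectins and the enzyme gene Ido1. Of its 25 genes tested, 1 was higher, 6 were lower and 18 did not pass, with a median log2 fold change of -0.03. In this list 28% were called, against 9.08% of all genes tested. Besides Vsir and Btn2a2, the lower genes were the MHC class I heavy chains H2-T23, H2-D1 and H2-K1, and Lgals8, a galectin. Vsir, which encodes the checkpoint protein VISTA, fell to 1.34, 1.35 and 1.72 CPM in the 3 knockout libraries, against 6.42, 11.1 and 11.8 CPM in the 3 parental libraries (log2 fold change -2.73 ± 0.30, SE; edgeR adjusted p = 0.00934). Btn2a2, a butyrophilin that restrains T cells, fell to 0.285 ± 0.115 CPM in knockout cells, against 1.61 ± 0.18 CPM in parental cells (SD, n = 3 each; edgeR adjusted p = 0.0196). Its knockout level rested on 8, 8 and 14 reads. Cadm1, an adhesion molecule that binds CRTAM on lymphocytes, rose to 101 ± 17.1 CPM in knockout cells, against 51.6 ± 6.04 CPM in parental cells (SD, n = 3 each; edgeR adjusted p = 0.0262). For Vsir all knockout libraries, replicate 2 included, lay far below the parental range. The calls of Vsir, Btn2a2 and Cadm1 were each also lost without knockout replicate 1 and without knockout replicate 3. Those of Btn2a2 and Cadm1 were lost too with a block for replicate number and without parental replicate 3. Without knockout replicate 2 the list had 6 higher and 6 lower of 25, where 46.2% of all genes were called.

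Of 43 genes known to act on PD-L1 transcription, glycosylation or turnover, 1 was higher, 6 were lower and 36 did not pass, with a median log2 fold change of -0.09. Across this list 16.3% were called, against 9.08% of all genes tested. Among the lower genes were Ifnar2, a subunit of the type I interferon receptor, and Jak2, a kinase of cytokine receptors. Irf9, a DNA-binding factor of the type I interferon response, fell to 9.17, 17.7 and 9.23 CPM in the 3 knockout libraries, against 40.5, 46.7 and 48.5 CPM in the 3 parental libraries (log2 fold change -1.91 ± 0.28, SE; edgeR adjusted p = 0.0185). Knockout replicate 2 was the highest knockout library and still lay below the parental range. Nfkb1, an NF-kB subunit, rose 1.53-fold (edgeR adjusted p = 0.0419). The interferon-gamma receptor genes did not pass, nor did Irf1, a direct activator of Cd274, which had 67.2, 38.9 and 64.8 CPM in the knockout libraries and 57.7, 75.5 and 79.9 CPM in the parental libraries. Cmtm6, which keeps PD-L1 at the surface, had 68.8 ± 2.20 CPM in knockout cells and 94.7 ± 14.5 CPM in parental cells (SD, n = 3 each; edgeR adjusted p = 0.085). Without knockout replicate 2 this list had 9 higher and 14 lower of 43, where 46.2% of all genes were called. In the interferon response list 29 of 38 genes tested were lower and 0 higher (median log2 fold change -1.68), where 5.60% of all genes tested were lower. Among the lower genes were Ifit3 and Ifi44, which fell 24.5-fold and 13.8-fold (edgeR adjusted p = 0.00654 and 0.0104). Leaving out parental replicate 3 or knockout replicate 3 also ended the Ifi44 call, and its fall was 23.4-fold without knockout replicate 2. Without that library the interferon list had 33 lower and 0 higher of 38, where 23.2% of all genes were lower. Some genes, Irf9 and Irf1 among them, are entries of both lists.

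Around CD73, of 13 genes tested for nucleotide breakdown and adenosine handling 1 was higher, 2 were lower and 10 did not pass, with a median log2 fold change of 0.31. Here 23.1% were called, against 9.08% of all genes tested. Enpp1, a surface enzyme that splits ATP, fell to 12.3, 11.2 and 12.2 CPM in the 3 knockout libraries, against 28.8, 31.0 and 26.5 CPM in the 3 parental libraries (edgeR adjusted p = 0.00934). Entpd2, a surface ATPase, fell 2.84-fold (edgeR adjusted p = 0.0214). Adk, adenosine kinase, which removes adenosine inside cells, rose to 76.4 ± 9.09 CPM in knockout cells, against 43.5 ± 7.46 CPM in parental cells (SD, n = 3 each; edgeR adjusted p = 0.0369). Entpd1 (CD39), which supplies CD73 in many tissues, was at 0.178 CPM or less in every library. Without knockout replicate 2 the list had 4 higher and 4 lower of 13, where 46.2% of all genes were called.

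Among 13 genes tested in a list drawn up around CD47, not all of them its partners, 3 were lower, 0 higher and 10 did not pass. The median log2 fold change was -0.47, and 23.1% were called, against 9.08% of all genes tested. Qpct, a secreted glutaminyl cyclase, fell to 9.29, 6.59 and 8.90 CPM in the 3 knockout libraries, against 25.2, 24.6 and 31.1 CPM in the 3 parental libraries (edgeR adjusted p = 0.00934). Its Golgi relative Qpctl, which modifies CD47 for SIRP-alpha binding, had 13.8, 9.66 and 13.7 CPM in the knockout libraries and 11.0, 9.50 and 9.95 CPM in the parental libraries (edgeR adjusted p = 0.355). Thbs2, a thrombospondin, fell to 0.421 ± 0.310 CPM in knockout cells, against 2.44 ± 1.00 CPM in parental cells (SD, n = 3 each; edgeR adjusted p = 0.0496). Its knockout level rested on 13, 5 and 25 reads. The third lower gene was B2m, the light chain of MHC class I and not a CD47 partner (edgeR adjusted p = 0.0356). Calr, calreticulin, which acts against CD47 as a signal for uptake, had 898, 2008 and 884 CPM in the knockout libraries and 697, 446 and 724 CPM in the parental libraries (edgeR adjusted p = 0.111). Without knockout replicate 2 this list had 2 higher and 7 lower of 13, where 46.2% of all genes were called. The calls of Enpp1, Entpd2, Adk, Qpct, Thbs2, Irf9 and Nfkb1 were each also lost without knockout replicate 1 and without knockout replicate 3. Those of Thbs2, Nfkb1, Adk, Entpd2 and Irf9 were lost too without parental replicate 3. Leaving out parental replicate 1 ended the calls of Thbs2, Nfkb1 and Entpd2, and a block for replicate number those of Thbs2, Nfkb1 and Adk.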

How the data were processed

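Gene expression was measured in 3 p62 knockout and 3 parental MOC2 cultures, grouped by the genotype label. Each deposited table lists, gene by gene and per the file headers, total exon reads, unique exon reads, TPM and the exon length. The counts are whole-number exon reads, not normalized, per the file headers, and TPM was computed by the authors and used as deposited, per the file headers. Reads were placed on GRCm39, as the submitters' processing notes name it. Libraries were stranded, per the labels' protocols, but no source used here names the aligner, the annotation or the strand setting of the counting. GENCODE lists antisense genes overlapping Cd274, Pdcd1lg2, Pvr and Nectin2, compared by whole gene spans and not by exons. Whether the counts keep the reads of these pairs apart is therefore not known.

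Total exon reads were tested with edgeR 4.0.16 (glmQLFit and glmQLFTest, R 4.3.3) after filterByExpr and TMM scaling, modelling group alone, with p-values adjusted by Benjamini-Hochberg over 12775 genes. Standard errors and 95% intervals derive from the quasi-likelihood statistic. Alternatives were RLE and upper quartile scaling, other filters on low counts, DESeq2 1.42.0, limma-voom (limma 3.58.1), unique reads, a replicate block and leaving out each library. Libraries held 32821860 to 41763980 reads; limits from counts of 0 cover counting error only.

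The members, lists and rules were chosen with earlier results of these data known. Genes named beyond the members were, per list, up to 2 called genes with the largest change in each direction, and for each member the 3 closest profiles; other named genes were chosen after their values were seen. One gene that this rule names, and one motif searched, are not reported here. Upstream windows came from RefSeq on GRCm38.p6 for 8 of the 9 members (not Pvr).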

Additional observations from a re-analysis of the deposited data

How the results depend on the processing

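The direction of Lgals9, Pvr, Cd274, Nt5e and Cd276 was the same under all alternatives in which they were tested. The stricter filter dropped Cd274 and Nt5e. The Lgals9 call held under RLE and upper quartile scaling, both other filters, DESeq2, limma-voom and unique reads, and was lost with the replicate block (log2 fold change -1.19, adjusted p = 0.0749). DESeq2 called Pvr (-0.86). The samples share only a replicate number: deviations from the group means correlated at -0.366, -0.105 and 0.284 for numbers 1 to 3. The block moved the calls across the table to 257 and those of the ligands to 0 (edgeR; 2 at an unadjusted p below 0.05), of the other ligand list to 2, of the PD-L1 control genes to 3 and of the CD47 list to 1. With DESeq2 these were 2881 across the table, 2 ligands, 14 PD-L1 control genes, 5 adenosine genes and 9 genes of the CD47 list. The causes were not tested.

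Leaving out each library in turn gave 0 to 5973 calls across the table (edgeR), 0 to 3 ligands, 0 to 12 genes of the other ligand list, 0 to 23 PD-L1 control genes, 0 to 8 adenosine genes, 0 to 9 genes of the CD47 list and 0 to 33 interferon genes. The highest counts came without knockout replicate 2. Without parental replicate 2 edgeR called 0 genes, with 2494 at an unadjusted p below 0.05. Such fits have fewer samples. Log2 fold changes ranged from -1.36 to -0.54 for Cd274, -1.21 to -0.71 for Pvr, -1.32 to -0.98 for Lgals9, -0.80 to -0.32 for Nt5e, 0.08 to 0.27 for Cd276, -0.080 to 0.058 for Nectin2 and -0.17 to 0.013 for Cd47. The signs of Nectin2 and Cd47 thus changed, at adjusted p-values of 0.675 or more. The order of member levels was unchanged with TMM-scaled reads per kilobase in place of TPM. Depth limits Cd274, Nt5e and Lgals9 most, and Cd80 and Pdcd1lg2 were tested only without the filter on low counts, where neither was called.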
